A study of Mus musculus with 9 samples.

Results

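Connexins are the membrane proteins of gap junctions, the channels through which neighbouring cells exchange ions and small molecules. Transcript signal was followed for 7 connexin genes in laser-captured prostate lesions of mice: the alpha members Gja1, Gja4 and Gja5, the beta members Gjb1, Gjb2 and Gjb5, and the gamma member Gjc1. They were chosen by name with earlier results of these arrays known, Gja1 for its higher signal in tumours and the beta members as epithelial connexins beside it, so the tumour values below are a description and carry no test. Each of the 7 had 1 probe set listed under its symbol alone, of 22180 genes with such a probe set, and all 7 passed the filter on low signal that left 16635 genes.

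The study captured lesions from fixed prostate sections of male mice of mixed strain, 12 months old. Tumours were poorly differentiated adenocarcinomas of PbCre;T-3Mb-Erg/+;PtenL/L mice (3 arrays), and epithelial cells of HG-PIN lesions, short for high-grade intraepithelial neoplasia, in which abnormal cells fill the gland without invading, came from the same 3 mice (3 arrays) and from 3 PbCre;PtenL/L mice (3 arrays). All 6 mice thus carried PbCre, a Cre recombinase driven by a probasin promoter that acts in prostate epithelium, together with PtenL/L, so the mice without the T-3Mb-Erg allele are not normal controls. The T-3Mb-Erg allele, carried on 1 chromosome, models the joining of Tmprss2 to Erg with loss of the genes between them. The groups are called T-3Mb-Erg tumours, T-3Mb-Erg HG-PIN and PbCre;PtenL/L HG-PIN below.

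A gap junction forms when a ring of connexins in one membrane docks with a ring in the next cell. Gja1 encodes Cx43, the most widespread connexin, found in fibroblasts, smooth muscle and many other cells as well as in basal layers of epithelia. Gjb1 (Cx32) and Gjb2 (Cx26) are connexins of glandular and other polarised epithelia, and Cx32 is known from luminal cells of the prostate. Gjb5 (Cx31.1) is known from stratified epithelia such as skin, Gja4 (Cx37) and Gja5 (Cx40) from the endothelium of arteries, and Gjc1 (Cx45) from heart and smooth muscle.

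The promoter regions of 3 members are shown because they carry the contrast followed here: Gja1, the member with higher signal in tumours, Gjb1, the beta member whose tumour values lay below those of HG-PIN, and Gjb2, the beta member with signal on all arrays. The sequences are from RefSeq (GRCm38.p6) and run from 250 bases before to 50 bases after the annotated start. They are chr10:56377050-56377349 on the plus strand for Gja1, chrX:101383482-101383781 on the plus strand for Gjb1, the last of 4 starts listed for it, and chr14:57104653-57104952 on the minus strand for Gjb2. Capitals mark matches on either strand to any of 6 short motifs. The letters searched were CAGGTG as the E-box, GGGCGG for the box bound by Sp1-like factors (GC box), TGACTCA as the site of the AP-1 factors, GGAAGT as the core of sites for ETS factors such as Erg, TATAAA for the TATA box, and CCAAT for the box of that name.
Gja1: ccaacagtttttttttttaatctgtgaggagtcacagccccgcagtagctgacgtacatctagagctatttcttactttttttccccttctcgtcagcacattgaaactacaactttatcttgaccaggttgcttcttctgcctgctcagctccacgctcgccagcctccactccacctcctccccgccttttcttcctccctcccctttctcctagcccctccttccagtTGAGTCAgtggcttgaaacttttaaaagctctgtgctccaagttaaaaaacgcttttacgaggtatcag
Gjb1: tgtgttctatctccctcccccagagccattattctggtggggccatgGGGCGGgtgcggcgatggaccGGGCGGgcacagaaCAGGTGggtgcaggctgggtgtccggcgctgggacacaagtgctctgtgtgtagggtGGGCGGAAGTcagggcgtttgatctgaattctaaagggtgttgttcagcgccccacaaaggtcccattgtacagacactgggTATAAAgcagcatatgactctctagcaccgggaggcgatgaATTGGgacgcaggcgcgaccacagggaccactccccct
Gjb2: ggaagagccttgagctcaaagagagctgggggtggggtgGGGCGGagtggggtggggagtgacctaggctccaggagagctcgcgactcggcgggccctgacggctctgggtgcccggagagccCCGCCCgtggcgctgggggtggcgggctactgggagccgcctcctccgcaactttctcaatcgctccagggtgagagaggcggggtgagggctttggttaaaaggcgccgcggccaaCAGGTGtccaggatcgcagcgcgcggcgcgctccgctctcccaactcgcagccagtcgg

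The Gja1 region held a single match, to AP-1 on the minus strand, at position -19 from the start. AP-1 letters were found in 5.20% of 32851 mouse promoter regions of this length, and in no other region of the members. The Gjb1 region held 3 GC boxes, an E-box, a TATA box at position -29, a CCAAT box and an ETS core that overlaps the last GC box. It held the most matches of the 4 Gjb1 starts: the first and second held 1 CCAAT box each and the third none of the 6 motifs, with 3, 2 and 6 CpG. Which of the 4 starts is used in the captured lesions was not measured. The Gjb2 region held 2 GC boxes and an E-box. Of all regions, 35.7% held the GC box letters, 20.2% the E-box, 23.8% the ETS core, 13.6% the TATA box and 37.4% the CCAAT box. Gja4 and Gja5 each held 1 GC box, and Gjb5 a TATA box and a CCAAT box. The Gjb2 region was richest in CpG of these 3, with 27 CpG against 8 for Gja1, 15 for Gjb1 and a median of 7 over all regions. Gjc1 had no entry. These are matches of letters in a window, not measured binding sites.

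Signals are intensities on a linear scale as deposited, given here as log2. As a gauge of background, 1394 genes of olfactory or vomeronasal receptors, which the prostate should hardly express, were used: the 95th percentile of their mean log2 signals was 4.80, called the receptor level. The spread of signal differed between arrays: the 95th percentile of log2 signal lay between 5.63 and 6.25 in T-3Mb-Erg tumours, 5.78 and 6.16 in T-3Mb-Erg HG-PIN, against 5.61 and 5.95 in PbCre;PtenL/L HG-PIN. Krt8 and Epcam, which mark luminal epithelium, had means of 5.06 and 4.17 in T-3Mb-Erg tumours, 7.94 and 6.72 in T-3Mb-Erg HG-PIN, against 7.21 and 6.50 in PbCre;PtenL/L HG-PIN. In the tumours, labelled adenocarcinoma, Epcam thus averaged below the receptor level and Krt8 little above it. As a check of the genotype labels, Erg averaged 4.52 ± 0.32 in T-3Mb-Erg tumours, 3.96 ± 0.32 in T-3Mb-Erg HG-PIN, against 3.88 ± 0.29 in PbCre;PtenL/L HG-PIN (SD, n = 3 each), all below the receptor level, so it neither bore out the labels nor went against them. In captured tissue, fewer cells of a type and less RNA per cell cannot be told apart.

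Gja1 was the only member whose signal stood far above the receptor level in one group and near or below it in the others. Its log2 signal was 8.22, 6.93 and 8.74 in T-3Mb-Erg tumours, against 4.28, 5.14 and 4.40 in T-3Mb-Erg HG-PIN of the same mice and 3.78, 4.20 and 3.72 in PbCre;PtenL/L HG-PIN. All tumour arrays lay above all 6 HG-PIN arrays, and the second tumour was the lowest of the 3. The means were 7.96 ± 0.94 in T-3Mb-Erg tumours, 4.61 ± 0.46 in T-3Mb-Erg HG-PIN, against 3.90 ± 0.27 in PbCre;PtenL/L HG-PIN (SD, n = 3 each). On the linear scale, the tumour intensities of 298, 122 and 429 stood against 19.5, 35.2 and 21.1 in HG-PIN of the same mice.

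The tumour mean of Gja1 was 10.2-fold the mean of T-3Mb-Erg HG-PIN (log2 difference 3.36, SE 0.44) and 16.7-fold that of PbCre;PtenL/L HG-PIN (4.06, SE 0.43). With HG-PIN taken at the receptor level instead, the difference was 8.93-fold in both. Within the 3 T-3Mb-Erg mice, tumour and HG-PIN of the same animal differed by 3.93, 1.79 and 4.34 on the log2 scale. In the second mouse this was 3.45-fold. The HG-PIN arrays of the first and the third mouse lay below the receptor level, so their differences are given as at least 10.7-fold and at least 15.3-fold, with HG-PIN taken at that level. The fit over all genes called 0.283% of them between T-3Mb-Erg tumours and T-3Mb-Erg HG-PIN, 11 genes (0.0661%) higher and 36 (0.216%) lower. That split moved with the setting: 30 were higher and 54 lower after quantile normalization, 226 and 179 with array weights, and 85 and 25 without the second tumour. The called genes included 1 of the 7 members, Gja1, and 0 without the first tumour or without the first or second T-3Mb-Erg HG-PIN array. In these settings, in that order, all genes called numbered 0, 5 and 8, and the Gja1 difference was 3.25, 3.21 and 3.51. Since Gja1 was chosen on these values, its presence among the called genes is no test of it. Between T-3Mb-Erg tumours and PbCre;PtenL/L HG-PIN, which uses the same tumour arrays, 0.180% of genes were called (0.108% higher and 0.0721% lower). They too included 1 member, Gja1, or 0 without the first or the third PbCre;PtenL/L array, and this is no independent test either.

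**Figure D1:**
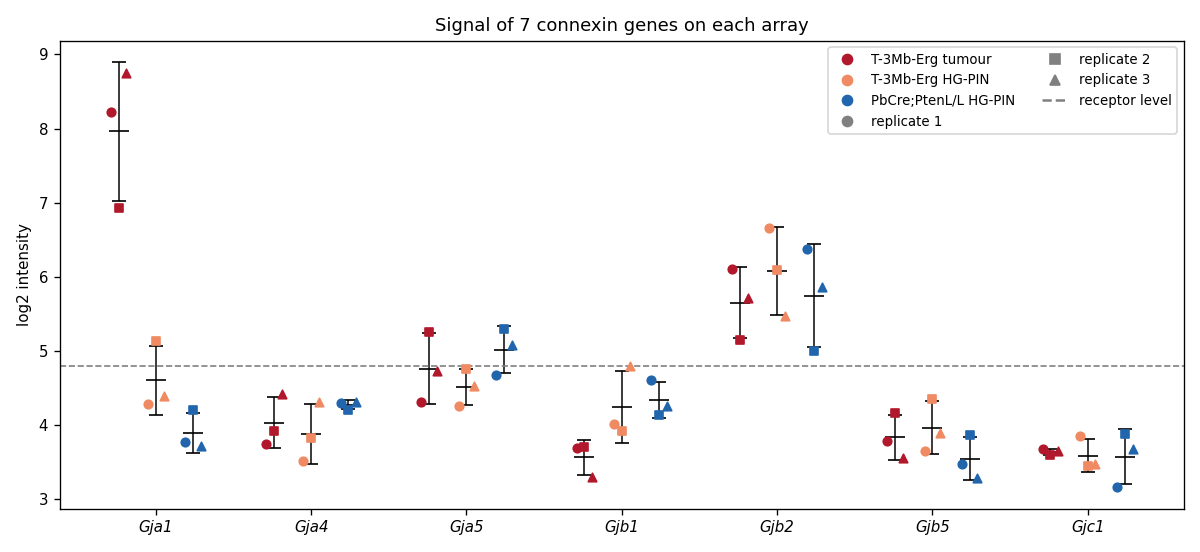
Log2 intensity of 7 connexin genes on each of 9 arrays, with group means and SD (n = 3) as bars and the receptor level of 4.80 as a dashed line. Gja1 lies between 6.93 and 8.74 in T-3Mb-Erg tumours and at or under 5.14 in both HG-PIN groups, while the other members overlap or lie close together.

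Cell type markers moved with Gja1 in part. The 12 fibroblast markers summed to 1349, 462 and 3566 intensity units in the 3 T-3Mb-Erg tumours, against 541, 632 and 295 in T-3Mb-Erg HG-PIN, with 229 to 257 in PbCre;PtenL/L HG-PIN, and 12 of 12 had a higher mean in tumours than in T-3Mb-Erg HG-PIN (median log2 difference 0.89). Of all genes tested, 8139 of 16635 had a higher mean in tumours in this comparison. Within the 3 mice the fibroblast markers differed between tumour and HG-PIN by 0.47, -0.03 and 2.56 on average, so the third mouse differed most. In the same mice Gja1 was higher by 3.93, 1.79 and 4.34 in the tumour. Of the defining fibroblast markers, Dcn was 5.72, 5.05 and 9.75 in the tumours, against 7.44, 5.50 and 5.81 in HG-PIN of the same mice. Pdgfra was 6.26, 4.85 and 4.83 in the tumours, against 2.41, 4.10 and 3.57.

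Smooth muscle markers took another order. Their 10 genes summed to 269, 233 and 717 in T-3Mb-Erg tumours, against 1475, 400 and 305 in T-3Mb-Erg HG-PIN, with 250 to 322 in PbCre;PtenL/L HG-PIN. The first T-3Mb-Erg HG-PIN array, highest for these markers (Myh11 7.43, Acta2 8.33), had a Gja1 signal of 4.28, below the receptor level. The 12 endothelial markers summed to 215 to 443 in T-3Mb-Erg tumours, 162 to 194 in T-3Mb-Erg HG-PIN, against 152 to 192 in PbCre;PtenL/L HG-PIN, and were higher on average in 11 of 12 genes in tumours than in T-3Mb-Erg HG-PIN; Pecam1 and Cdh5 had tumour means of 5.40 and 5.96. The 8 macrophage markers summed to 181 to 415 in T-3Mb-Erg tumours, 180 to 238 in T-3Mb-Erg HG-PIN, against 163 to 192 in PbCre;PtenL/L HG-PIN, with Adgre1 and Csf1r means at or below 4.47 in all 3 groups.

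Epithelial markers went the other way from Gja1. The 12 measured luminal markers summed to 314 to 463 in T-3Mb-Erg tumours, 1436 to 1886 in T-3Mb-Erg HG-PIN, against 619 to 1509 in PbCre;PtenL/L HG-PIN, and 0 of 12 had a higher mean in tumours. The 6 measured basal markers summed to 130 to 174, 570 to 662 and 202 to 296 in the same groups, with Trp63 below the receptor level in all 3 group means. The part of the other cell types in the Gja1 difference was not tested.

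**Figure D2:**
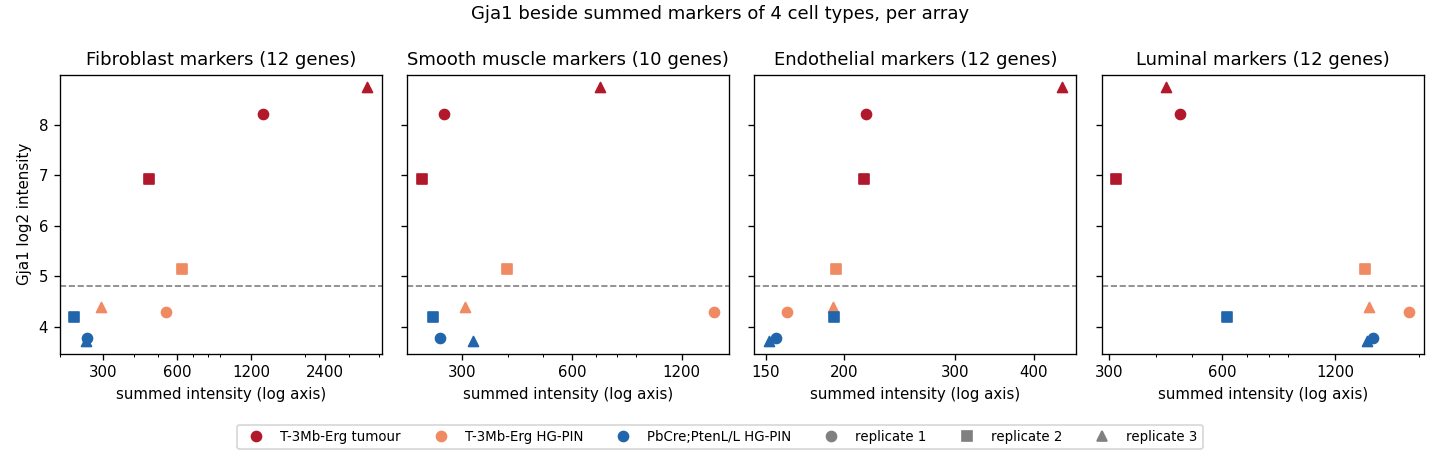
Gja1 log2 intensity (vertical axis) against the summed linear intensity of fibroblast, smooth muscle, endothelial and luminal markers (horizontal log axes) on each of 9 arrays; the dashed line is the receptor level. The tumours have fibroblast sums of 1349, 462 and 3566, with Gja1 at 8.22, 6.93 and 8.74. The sums of T-3Mb-Erg HG-PIN range from 295 to 632.

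Of the epithelial beta connexins, Gjb2 was measured above the receptor level on 9 of 9 arrays and showed no separation of the groups. Its log2 signal was 6.10, 5.15 and 5.71 in T-3Mb-Erg tumours, against 6.66, 6.09 and 5.48 in T-3Mb-Erg HG-PIN, with 6.38, 5.0 and 5.86 in PbCre;PtenL/L HG-PIN. The 3 groups overlapped throughout, and the highest and the lowest array were both HG-PIN. The tumour mean differed from that of T-3Mb-Erg HG-PIN by -0.42 (SE 0.44) and from that of PbCre;PtenL/L HG-PIN by -0.09 (SE 0.43). Within the 3 mice the difference between tumour and HG-PIN was -0.56, -0.94 and 0.23. Pearson's r of Gjb2 signal with the array's 95th percentile of signal was 0.70 over the 9 arrays, against -0.68 for Gja5, -0.53 for Gjb5, 0.34 for Gja1 and -0.36 for Gjb1. Within groups it was 0.78 for Gjb2, -0.71 for Gja5 and -0.84 for Gjb5. These are descriptions, since the arrays share that spread across many genes, and the part of the spread in the differences of these members was not tested.

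Gjb1 was lower in tumours by a small amount and lay at or below the receptor level on all 9 arrays. Its log2 signal was 3.70, 3.71 and 3.30 in T-3Mb-Erg tumours, against 4.02, 3.92 and 4.80 in T-3Mb-Erg HG-PIN, with 4.61, 4.14 and 4.27 in PbCre;PtenL/L HG-PIN. The tumour arrays lay below all HG-PIN arrays. The difference from T-3Mb-Erg HG-PIN was -0.68 (SE 0.26) and that from PbCre;PtenL/L HG-PIN -0.77 (SE 0.26), and within the mice it was -0.33, -0.21 and -1.51, the last taken from the highest HG-PIN array. In tumours, 81.8% of receptor genes had a lower mean than Gjb1, against 91.4% in T-3Mb-Erg HG-PIN, with 90.1% in PbCre;PtenL/L HG-PIN, so background limits what its values show.

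Gjb5, the third beta member, did not separate the groups. It stood at 3.79, 4.16 and 3.56 in T-3Mb-Erg tumours, 3.65, 4.36 and 3.89 in T-3Mb-Erg HG-PIN, against 3.48, 3.87 and 3.29 in PbCre;PtenL/L HG-PIN, below the receptor level throughout. Its differences within the mice were 0.14, -0.20 and -0.33. Of the beta members, 3 of 3 had a lower mean in tumours than in T-3Mb-Erg HG-PIN, by 0.13 to 0.68 on the log2 scale, but only Gjb1 lay below without overlap. Of all genes tested, 8496 of 16635 were lower by mean in this comparison. The Gjb5 difference was -0.13 (SE 0.25), and from PbCre;PtenL/L HG-PIN the tumours differed by 0.29 (SE 0.25), in the other direction.

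The vascular members showed little difference between the groups. Gja5 stood at 4.31, 5.26 and 4.73 in T-3Mb-Erg tumours, 4.26, 4.76 and 4.53 in T-3Mb-Erg HG-PIN, against 4.67, 5.30 and 5.08 in PbCre;PtenL/L HG-PIN, above the receptor level on 3 of 9 arrays. Gja4 stood at 3.75, 3.93 and 4.42 in T-3Mb-Erg tumours, 3.51, 3.83 and 4.31 in T-3Mb-Erg HG-PIN, against 4.30, 4.21 and 4.32 in PbCre;PtenL/L HG-PIN, always below it. Both were higher in the tumour than in the HG-PIN of all 3 mice by small amounts, 0.05 to 0.50 for Gja5 and 0.10 to 0.24 for Gja4. By mean, both were highest in PbCre;PtenL/L HG-PIN, at 4.28 for Gja4 and 5.02 for Gja5, against 4.03 and 4.77 in tumours. The endothelial marker sum, given above, was higher in tumours than in either HG-PIN group, with 2 of 12 markers above the receptor level by mean. The part of endothelial cells in the differences of Gja4 and Gja5 was not tested. Gjc1 was the flattest member, with values between 3.16 and 3.88 on the 9 arrays and group means of 3.64, 3.59 and 3.58, all below the receptor level.

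Over the 7 members, 3 were higher and 1 was lower in the tumour than in the HG-PIN of all 3 mice, or 57.1%, beside 24.6% of all genes that went one way in the 3 mice. The counts in this paragraph include Gja1, which was chosen for its higher signal in tumours, so they are descriptions. Groups that did not overlap between T-3Mb-Erg tumours and T-3Mb-Erg HG-PIN were found for 2 of 7 members, Gja1 and Gjb1, where 11.4% of all genes had such groups (4.97% higher and 6.43% lower). Against PbCre;PtenL/L HG-PIN, Gja1 lay above and Gjb1 below without overlap, beside 13.7% of all genes (6.20% higher and 7.51% lower), and the tumour arrays are shared. The median difference of the members was 0.05, beside -0.01 over all genes tested.

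**Figure D3:**
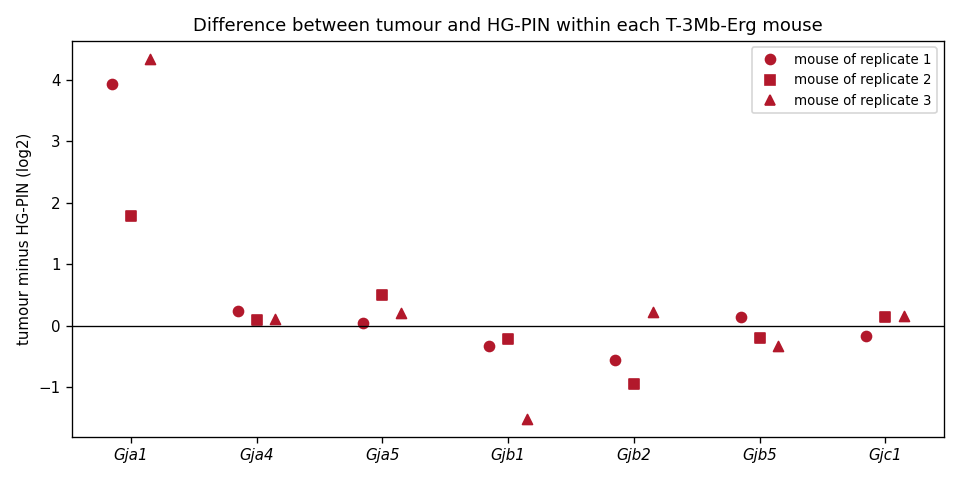
Tumour minus HG-PIN log2 intensity of 7 connexin genes (vertical axis) in each of the 3 T-3Mb-Erg mice. Gja1 lies at 3.93, 1.79 and 4.34, and the other members between -1.51 and 0.50.

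The comparison of T-3Mb-Erg HG-PIN with PbCre;PtenL/L HG-PIN asked how the same kind of lesion differs when the mouse carries T-3Mb-Erg. It was not the contrast the members were chosen on, although it shares the T-3Mb-Erg HG-PIN arrays with that one. No member passed. Gja1 had the largest difference of the 7, 0.71 on the log2 scale (SE 0.43, 95% interval -0.24 to 1.66, limma adjusted p = 0.998), or 1.63-fold. Its groups did not overlap, by a gap of 0.08, which held for 1 of 7 members and for 10.1% of all genes (4.86% higher and 5.25% lower). Of these 6 arrays, 1 T-3Mb-Erg array was above the receptor level. By mean, Gja1 thus stood highest in tumours, then in T-3Mb-Erg HG-PIN and lowest in PbCre;PtenL/L HG-PIN, and the difference between the last 2 did not pass the test.

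Gjb5 and Gjb2 had positive differences of 0.42 (95% interval -0.13 to 0.97) and 0.33 (-0.62 to 1.28), and Gjc1 one of 0.02 (-0.48 to 0.51). Gja5, Gja4 and Gjb1 had negative ones of -0.50 (-1.13 to 0.13), -0.39 (-0.93 to 0.15) and -0.09 (-0.66 to 0.48). The adjusted p was 0.998 or above for all 7, 0 of 7 had an unadjusted p under 0.05, and limma called 0% of all genes (682 of 16635 with an unadjusted p under 0.05). The intervals of Gja4, Gjb1, Gjb5 and Gjc1 lay within 1 log2 unit of 0, while those of Gja1, Gja5 and Gjb2 reached beyond it. Each of those first 4 was above the receptor level on 0 of 9 arrays. Their intervals describe signal near background and set no bound on a change in transcript. Means of cell type markers were also higher in T-3Mb-Erg HG-PIN than in PbCre;PtenL/L HG-PIN for 10 of 10 smooth muscle, 10 of 12 fibroblast, 7 of 8 macrophage, 11 of 12 luminal and 5 of 6 basal markers, and for 5 of 12 endothelial ones. Of all genes tested, 8230 of 16635 had a higher mean in T-3Mb-Erg HG-PIN. In PbCre;PtenL/L HG-PIN, 4 smooth muscle, 2 fibroblast, 2 macrophage, 11 luminal, 3 basal and 0 endothelial markers were above the receptor level by mean. The part of these cell types in the connexin differences was not tested.

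**Figure D4:**
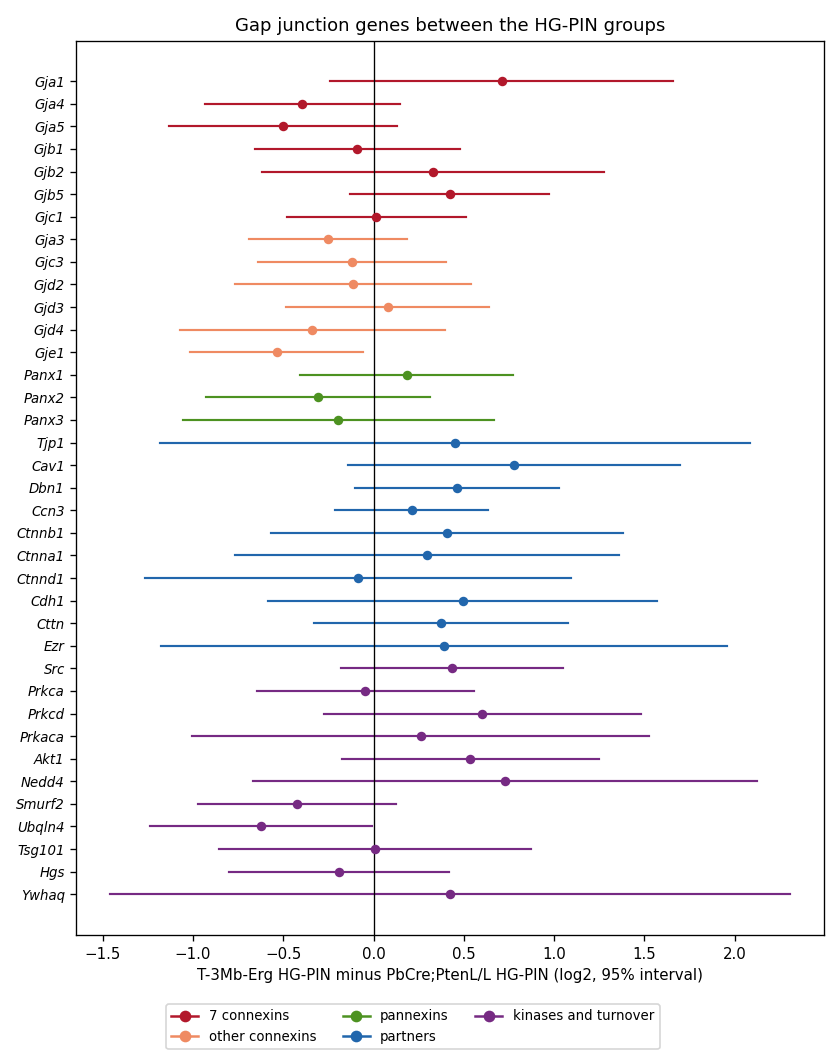
Log2 change of T-3Mb-Erg HG-PIN minus PbCre;PtenL/L HG-PIN (horizontal axis) with 95% intervals from limma, for 7 connexins and 30 other gap junction genes. Gja1 lies at 0.71 with an interval from -0.24 to 1.66, and the intervals of the 7 connexins all include 0.

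Other genes of gap junctions were taken from lists of other connexins, pannexins, connexin partners, and connexin kinases and turnover factors, of which 30 of 42 were tested. Among them 1 passed between T-3Mb-Erg tumours and T-3Mb-Erg HG-PIN, Cdh1, and it fell, where 0.283% of all genes passed and 0.216% passed as lower. Cdh1 encodes E-cadherin, the adhesion protein of epithelia beside which gap junctions assemble. It stood at 4.31, 4.94 and 5.02 in T-3Mb-Erg tumours, against 8.10, 7.96 and 6.86 in T-3Mb-Erg HG-PIN, with 7.80, 6.14 and 7.51 in PbCre;PtenL/L HG-PIN. The tumour arrays lay below all others (log2 change from T-3Mb-Erg HG-PIN -2.88, SE 0.50, limma adjusted p = 0.0424). The adjusted p was 0.0809 with the mouse as a fixed block and 0.0821 with log2(intensity + 16), and the count was 0 without the first or second tumour, the first or second T-3Mb-Erg HG-PIN array, or the third PbCre;PtenL/L array. The luminal marker sum, which includes Cdh1 itself, was lower in the same tumours. The part of luminal cells in the Cdh1 change was not tested. Ezr, an actin linker of the apical membrane, had a difference of -1.74 and did not pass (adjusted p = 0.563).

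The 6 other connexins tested lay between -0.22 (Gjd3) and 0.12 (Gje1) in this comparison, with a median of 0.01 beside -0.01 over all genes. Gjd3 and Gjd2 (-0.19) had the smallest p of them, both with an adjusted p of 0.977 or above. Gja6, Gja10 and Gjb6, the neighbour of Gjb2, lay below the filter with means over the 9 arrays of 2.72, 1.93 and 2.84. Gja3, the other neighbour of Gjb2, differed by 0.09 and did not pass.

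The pannexins, which form channels in a single membrane, had differences of -0.48 (Panx1), -0.05 (Panx2) and 0.27 (Panx3), and 0 of 3 passed. Of 11 kinases and turnover factors 0 passed, with a median of 0.02. Smurf2, a ubiquitin ligase, stood at 0.60 (adjusted p = 0.575) and Prkca, a protein kinase C, at -0.52 (adjusted p = 0.759). The 10 partners had a median of -0.14, with Tjp1, the scaffold ZO-1 that binds the tail of Cx43, at -0.38 (SE 0.75).

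Between the HG-PIN groups 0 of the 30 passed. The smallest p values were those of Gje1 (-0.54) and Gja3 (-0.25) among the connexins, Panx2 (-0.31) and Panx1 (0.18) among the pannexins, and Cav1 (0.78) and Dbn1 (0.46) among the partners. Ubqln4, which delivers connexins for degradation, stood at -0.62, and Smurf2 at -0.42. All had an adjusted p of 0.998, and 2 of the 30, Gje1 and Ubqln4, had an unadjusted p under 0.05. The list medians were -0.19 for other connexins, -0.19 for pannexins, 0.40 for partners and 0.26 for kinases and turnover factors, beside 0.00 over all genes.

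The genes whose pattern over the 9 arrays was most like that of a member were found among 5524 or 5525 genes with a group mean above the receptor level. For Gja1 they were Slit3, a secreted guidance cue (Pearson's r = 0.991), Pdpn, the membrane glycoprotein podoplanin (0.989), Slc43a3, a nucleobase transporter (0.987), Lrp1, an endocytic receptor (0.985), and Lox, a collagen crosslinker (0.981). Their means were 6.77 to 7.23 in T-3Mb-Erg tumours, 3.55 to 5.36 in T-3Mb-Erg HG-PIN, against 2.91 to 4.84 in PbCre;PtenL/L HG-PIN. All 5 thus followed the order of groups seen for Gja1, which chose them.

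For Gjb2 the most similar genes were Cox6b1 (r = 0.961), Ndufa3 (0.953), Atp5pb (0.950), Cox17 (0.950) and Ypel2 (0.943). The first 4 of these encode subunits or an assembly factor of the mitochondrial respiratory chain or ATP synthase. Cox6b1 averaged 7.33 ± 1.27 in T-3Mb-Erg tumours, 8.02 ± 0.90 in T-3Mb-Erg HG-PIN, against 7.67 ± 1.22 in PbCre;PtenL/L HG-PIN (SD, n = 3 each), a spread within groups larger than the differences between them, as for Gjb2. For Gjb1 they were Gfer (0.917), Rtp4 (0.913), Sipa1l3 (0.904), Dmac1 (0.904) and Irf7 (0.901), of which Rtp4 and Irf7 are interferon-induced genes. Rtp4 averaged 4.82 in T-3Mb-Erg tumours, 5.62 in T-3Mb-Erg HG-PIN, against 5.84 in PbCre;PtenL/L HG-PIN. For Gjb5 they were Zc3h12a (0.927), Aars2 (0.902), Tbx21 (0.895), Rnu11 (0.881) and Cplx1 (0.864). These correlations are descriptions over arrays that share their spread of signal, and 3 mice gave 2 arrays each.

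**Figure D5:**
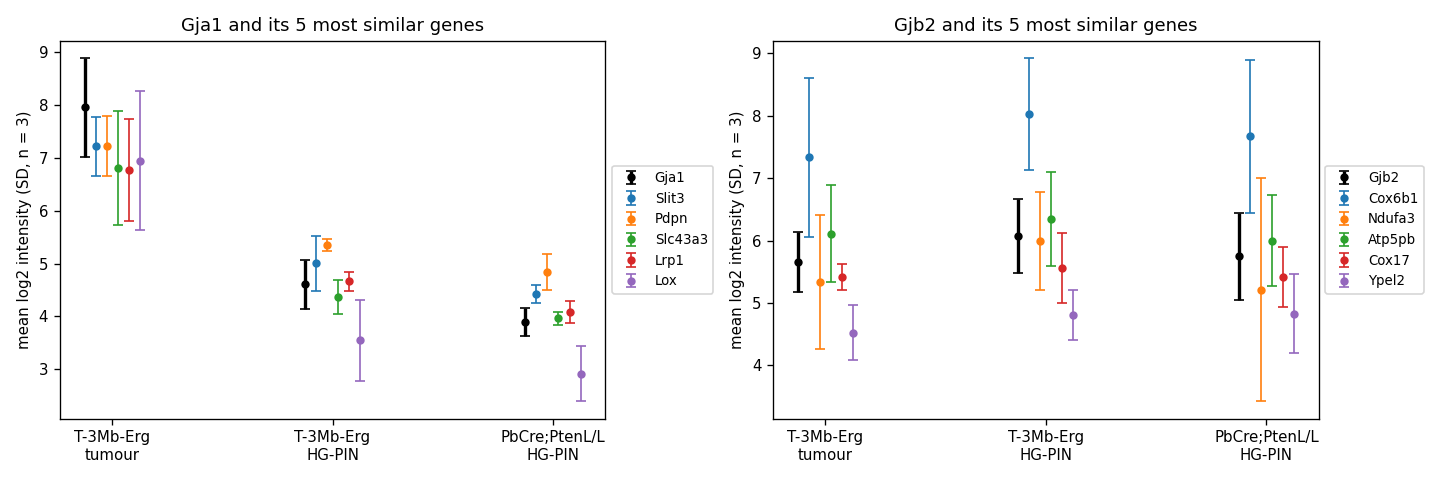
Mean log2 intensity with SD (n = 3) of Gja1 and of Gjb2, each with the 5 genes of highest Pearson's r over 9 arrays, in T-3Mb-Erg tumours, T-3Mb-Erg HG-PIN and PbCre;PtenL/L HG-PIN. The genes like Gja1 average 6.77 to 7.23 in tumours and at most 5.36 in HG-PIN, while those like Gjb2 overlap between groups.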

How the data were processed

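Amplified RNA (NuGEN) was hybridised to Affymetrix Mouse Gene 2.0 ST arrays, per the series' design text and the labels' protocols. The authors deposited 1 linear intensity for each of 41345 probe sets and array (1.36 to 13922), and array medians were 13.6 to 15.4. How they corrected background, summarised probes and normalized is not stated in the sources used here. Arrays have no depth, and 3 per group limit the precision.

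The labels gave each array's genotype, lesion and mouse. Names came from the platform annotation, updated with the RefSeq table of GRCm38.p6: 23521 had exactly 1 symbol, 1814 several and 16010 none. The brightest probe set by mean was kept per symbol. Values were log2-transformed (floor 1), and the lowest 25% of genes by mean (below 3.25) were removed.

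limma 3.58.1 in R 4.3.3 fitted group means over 9 arrays, with the mouse as a random block (consensus correlation -0.01) and variances with a mean trend. A gene was called at an adjusted p (Benjamini-Hochberg, over 16635 genes) under 0.05. Same-numbered T-3Mb-Erg arrays came from the same mouse, per the labels, and their deviations from the group means correlated at 0.17, 0.10 and -0.30. The fit was tested on simulated data.

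The members, lists and tests were chosen with earlier results of these data known. Named genes were the 7 members, called list genes or else the 2 of each list with the smallest p, Ezr and Tjp1 (added after their values were seen), list genes outside the filter, and the 5 genes most correlated with Gja1, Gjb1, Gjb2 and Gjb5, without predicted genes, microRNAs and small nucleolar RNAs. A further probe set that lists Gja5 together with another gene was not used.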

Additional observations from a re-analysis of the deposited data

How the results depend on the processing

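Across 20 other settings, 9 of which left out 1 array, the Gja1 difference between T-3Mb-Erg tumours and T-3Mb-Erg HG-PIN stayed between 2.72 and 3.82, and its change between the HG-PIN groups between 0.39 and 0.95. No member and no list gene was called between the HG-PIN groups in any of the 19 settings that could be fitted there; a fixed replicate block could not, since the mice differ. With the mouse as a fixed instead of a random block, 0 list genes and 15 of all genes were called between T-3Mb-Erg tumours and T-3Mb-Erg HG-PIN. Neither this nor a fit without the block changed a call of a member. Other settings gave 0 list genes with log2(intensity + 16) and 2 with the arrays' signal range as a term (Cdh1 and Ezr), and 0 to 1 without single arrays, as for the members in both tumour comparisons. All genes called there numbered 84 after quantile normalization, 18 with the offset, 405 with array weights, 180 with the range term and 0 to 110 without single arrays. Between the HG-PIN groups they numbered 9 with array weights, 6 with the range term, 4 on 2 groups alone and 0 to 6 without single arrays. Between T-3Mb-Erg tumours and PbCre;PtenL/L HG-PIN they numbered 89 after quantile normalization, 8 with the offset, 938 with array weights, 171 with the range term, 7 on 2 groups alone and 0 to 261 without single arrays. Without single arrays, the HG-PIN changes turned sign for Gjb1 (-0.41 to 0.058), for Gjb2 (-0.042 to 0.64) and for Gjc1 (-0.19 to 0.17). The cause was not tested. Signal near background limits what 5 members show.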
